A study of Mus musculus with 6 samples.

Results

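The transcription factors *Cdx1*, *Cdx2*, *Hnf4a*, *Hnf4g*, *Gata4*, *Gata5*, *Gata6* and *Gata2* were followed in intestinal tumor organoids of 3 *Trp53* genotypes. The 8 genes were taken by symbol from the 36172 genes listed, and all 8 were among the 10042 tested, which reached 4 rpkm in 1 library or more. Organoids, which are epithelial cultures grown in a gel, came from small intestinal tumors of C57BL/6 mice aged 15 to 20 weeks. All of them carried the *Apc*Δ716 truncation with loss of the remaining *Apc* allele, so no library represents normal intestine. The *Trp53+/+* organoids had intact p53. The *Trp53flox/flox* organoids had a stop-blocked allele that is null as long as it is not recombined, and in the *Trp53R270H/R270H* organoids tamoxifen and *villin-CreER*, a Cre that is active in gut epithelium, had switched this allele to the missense protein p53R270H. Each genotype had 2 mice with separately made organoids, so every mean below rests on n=2.

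Cdx2 and its relative Cdx1 are homeodomain factors that hold intestinal epithelium apart from stomach epithelium. The nuclear receptors Hnf4a and Hnf4g act together on genes of the enterocyte brush border. Among the zinc-finger Gata factors, Gata4 marks the proximal small intestine and fades towards the ileum, Gata6 acts along the whole intestine including the crypts, and Gata5 is found mainly in differentiated cells. Gata2 belongs to the blood and vascular branch of that family, where it acts in blood stem cells, mast cells and endothelium, and it is not counted among the factors of gut epithelium.

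In *Trp53R270H/R270H* organoids, the Gata factors changed in opposite directions, and no call was made for *Cdx1*, *Cdx2*, *Hnf4a* or *Hnf4g* against *Trp53+/+*. *Gata2* was at least 7.03-fold and *Gata6* 2.25-fold higher than in *Trp53+/+* organoids, and *Gata4* and *Gata5* were each 2.11-fold lower. *Gata2* was tested only because of its *Trp53R270H/R270H* values, so it had to differ. Over all tested genes, 5.86% were called higher and 6.36% lower in this comparison. In *Trp53flox/flox* organoids, which lack p53, none of the 8 genes was called against *Trp53+/+*, where 4.38% of all tested genes were higher and 6.90% lower. A call means an adjusted p under 0.05 by limma. The levels are in rpkm, read counts scaled by sequencing depth and by gene length, so they can be set side by side between genes. No value in the table is below 1 rpkm, and a gene given at 1 rpkm below stands at this floor, where lower levels cannot be told apart.

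The sequence just upstream of *Gata2*, *Gata5* and *Hnf4a* is shown because the first rose, the second fell and the third was not called in *Trp53R270H/R270H* organoids against *Trp53+/+*. RefSeq windows (GRCm38) matched 4 of the 8 genes with 6 start sites, and the 250 bases before the start are given on the strand of the gene. *Gata2* has a distal and a proximal start, chr6:88193641-88193890 and chr6:88198414-88198663, both on the plus strand. The other windows are chr2:180334680-180334929 on the minus strand for *Gata5* and chr2:163506607-163506856 on the plus strand for the upstream *Hnf4a* start. Capitals mark GATAA, the core that Gata factors bind, on either strand. They also mark the core of Cdx sites, spelled TTTAT, and likewise on either strand the core of sites for the Hnf4 receptors, which is written CAAAG.
Gata2 distal: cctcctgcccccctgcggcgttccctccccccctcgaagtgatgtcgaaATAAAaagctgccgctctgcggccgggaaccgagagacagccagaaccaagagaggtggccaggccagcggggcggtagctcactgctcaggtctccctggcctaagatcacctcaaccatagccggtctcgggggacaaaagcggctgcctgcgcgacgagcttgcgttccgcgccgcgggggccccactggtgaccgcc
Gata2 proximal: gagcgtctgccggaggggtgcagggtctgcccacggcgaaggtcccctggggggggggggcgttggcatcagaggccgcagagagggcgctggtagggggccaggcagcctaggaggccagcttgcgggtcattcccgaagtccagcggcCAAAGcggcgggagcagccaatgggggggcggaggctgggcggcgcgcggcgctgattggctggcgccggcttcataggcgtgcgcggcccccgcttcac
Gata5: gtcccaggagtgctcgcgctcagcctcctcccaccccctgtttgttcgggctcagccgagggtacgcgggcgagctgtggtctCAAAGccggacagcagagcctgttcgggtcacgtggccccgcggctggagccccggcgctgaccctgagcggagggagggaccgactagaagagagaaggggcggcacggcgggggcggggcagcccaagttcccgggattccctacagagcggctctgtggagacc
Hnf4a: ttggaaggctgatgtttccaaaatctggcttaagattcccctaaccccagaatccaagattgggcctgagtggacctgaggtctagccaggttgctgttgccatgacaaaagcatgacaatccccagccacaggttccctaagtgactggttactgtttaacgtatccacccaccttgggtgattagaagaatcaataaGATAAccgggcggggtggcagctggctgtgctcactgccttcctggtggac
The only GATAA in these 4 windows was 51 bases before the upstream *Hnf4a* start, and 22.6% of the 32851 RefSeq windows of this length held one. The distal *Gata2* window held a Cdx core, found in 37.3% of windows, and the proximal *Gata2* and the *Gata5* windows each held an Hnf4 core, found in 48.6%. The Gata and Cdx cores can overlap on opposite strands, which did not occur here. The p53 decamer, the unit of p53 response elements, was in 0 of these 4 windows and in 7.13% of all. Both *Gata2* windows and the *Gata5* window were rich in CG dinucleotides, with 22, 24 and 22 of them against a median of 6, although *Gata2* rose and *Gata5* fell. The *Hnf4a* window had 3. The window before the downstream *Hnf4a* start, chr2:163546905-163547154, held 0 matches to any of these motifs and 4 CG dinucleotides.

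*Trp53* itself followed the labels, with 74.3 to 75.9 rpkm in *Trp53+/+*, 1.73 and 2.48 in *Trp53flox/flox* and 72.8 to 82.7 in *Trp53R270H/R270H* libraries. The *Trp53flox/flox* libraries differed from each other more than the others did, by a median of 0.349 per gene on the log2 scale against 0.0655 in *Trp53+/+* and 0.0878 in *Trp53R270H/R270H*. For genes of the 8 whose call changed with it, values without a *Trp53flox/flox* library are given below. Of the epithelial markers, all 10 were above the floor in every genotype, among them *Epcam* and *Cdh1*. Of 18 markers of blood, mast and endothelial cells, 14 stood at the floor in all 6 libraries, as did the fibroblast collagens *Col1a2* and *Col3a1*. The collagen *Col1a1* was above it in *Trp53flox/flox* replicate 2 alone, at 2.44 rpkm. The table gives no read counts, and steps of 1 read in short RNA genes gave usable depth estimates for 4 libraries, of 44.2 to 47.3 M mapped reads.

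**Figure D1:**
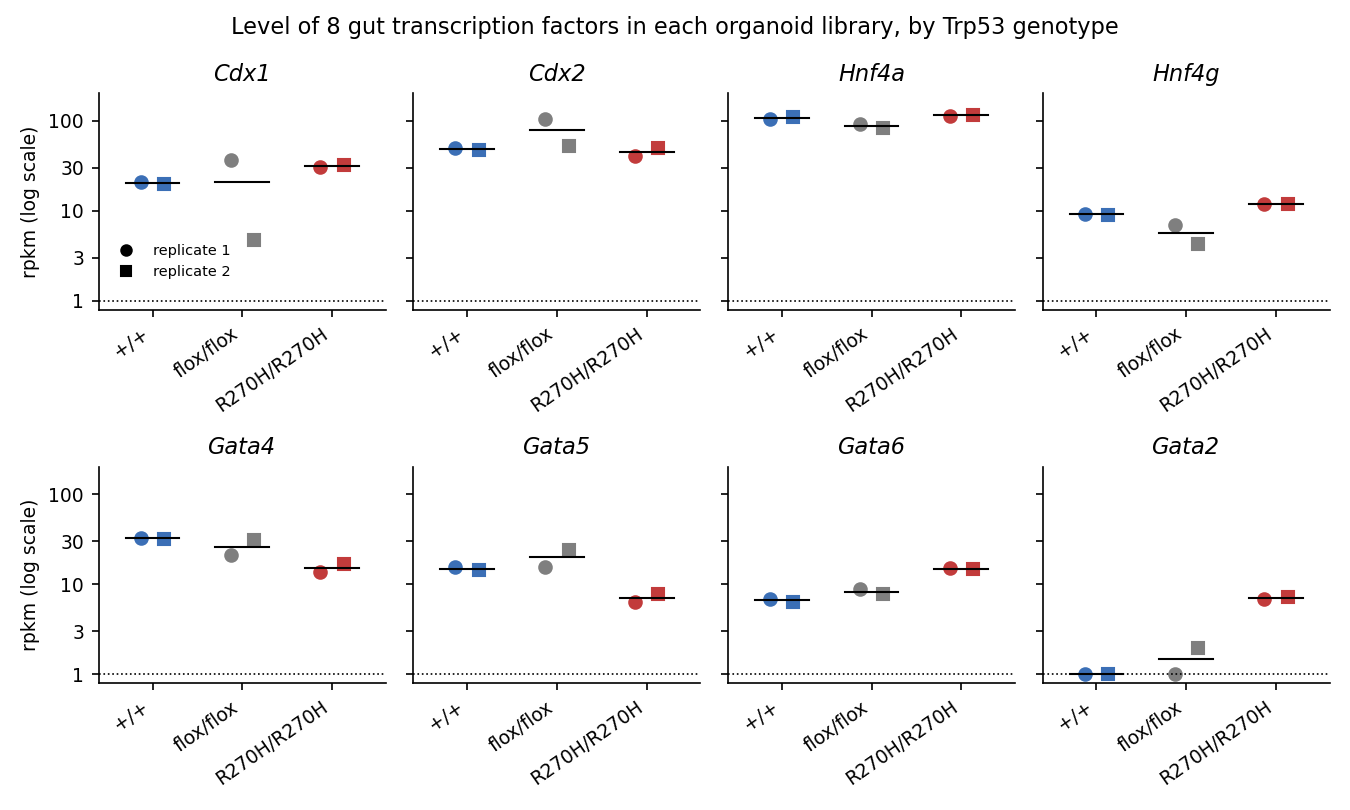
Level of each factor in rpkm on a log axis, 1 point per library, with the genotype mean as a line and the floor of 1 rpkm dotted. The *Trp53R270H/R270H* points of *Gata2* and *Gata6* lie above and those of *Gata4* and *Gata5* below all *Trp53+/+* points, and the *Trp53flox/flox* libraries lie far apart for *Cdx1*.

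The order of the levels was led by the same pair in *Trp53+/+* and *Trp53R270H/R270H* organoids. In *Trp53+/+* organoids it ran from *Hnf4a* (107±3.95 rpkm, s.d.) over *Cdx2* (48.9±1.85), *Gata4* (32.2±0.143), *Cdx1* (20.3±0.721), *Gata5* (14.9±0.76), *Hnf4g* (9.17±0.147) and *Gata6* (6.63±0.314) to *Gata2* at the floor. The replicate ranges of neighbours in this order did not overlap. In *Trp53R270H/R270H* organoids, *Hnf4a* (114±3.14 rpkm) and *Cdx2* (45.2±6.17) were again highest, but *Cdx1* (31.6±1.05) stood above *Gata4* (15.2±2.18). *Gata4* and *Gata6* (14.9±0.08) had overlapping ranges there, and so did *Gata5* (7.05±1.01) and *Gata2* (7.03±0.248). In *Trp53flox/flox* organoids, the ranges of *Hnf4a* and *Cdx2* overlapped, as did those of *Gata4*, *Cdx1* and *Gata5*.

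Between *Trp53R270H/R270H* and *Trp53+/+* organoids, 2 of the 8 genes were called higher and 2 lower by limma at an adjusted p of 0.05, against the 5.86% and 6.36% of all tested genes. *Gata2* is counted here although it passed the filter on low values only through the *Trp53R270H/R270H* libraries and so had to differ. The median absolute log2 fold change was 0.80 over the 8 genes and 0.275 over all tested genes. In the *Trp53flox/flox* against *Trp53+/+* comparison, 0 of 8 were called and 2 of 8 had an unadjusted p under 0.05, as had 3489 of the 10042 tested genes. Between *Trp53R270H/R270H* and *Trp53flox/flox* organoids, 3 were called higher and 1 lower, against 13.6% and 11.0% of all genes. These counts depend on the libraries: without *Trp53flox/flox* replicate 1 or 2, calls rose to 6 and 6 in *Trp53R270H/R270H* against *Trp53+/+*, to 5 and 6 in *Trp53flox/flox* against *Trp53+/+* and to 7 and 8 in *Trp53R270H/R270H* against *Trp53flox/flox*. Without any 1 of the *Trp53+/+* or *Trp53R270H/R270H* libraries, 0 of 8 were called in each comparison by limma, with 1 library left in that genotype.

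**Figure D2:**
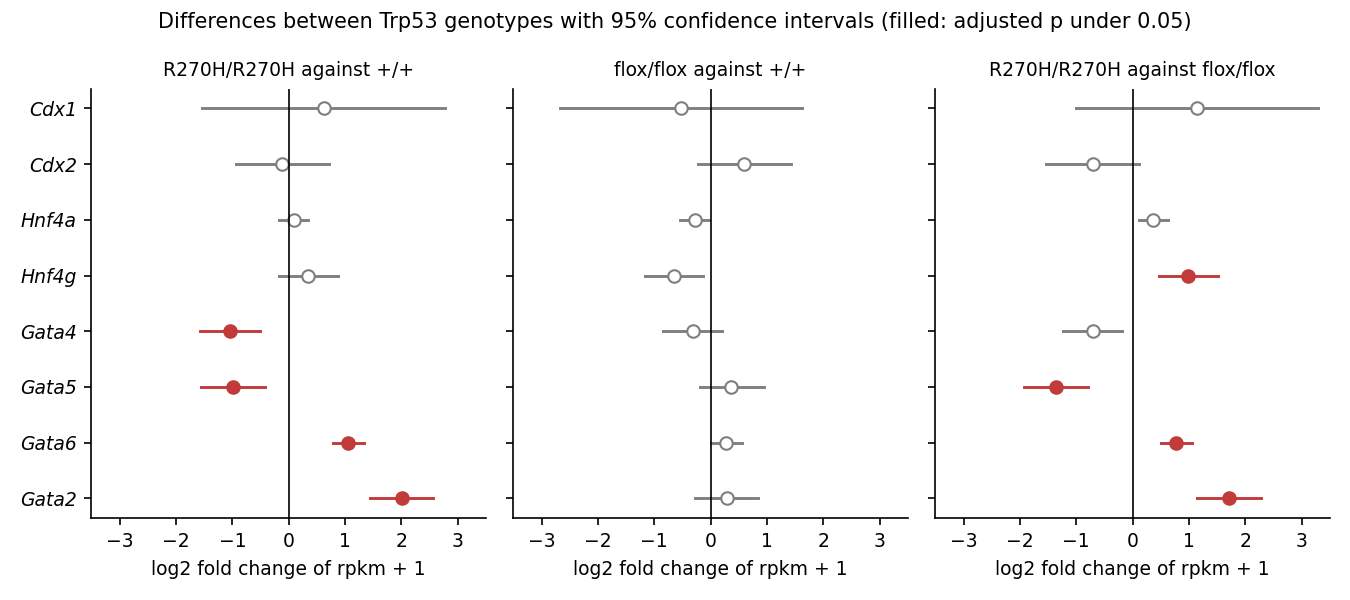
Log2 fold change of rpkm+1 for the 8 factors in the 3 comparisons, with 95% confidence intervals as lines and filled points for an adjusted p under 0.05. The *Cdx1* interval is the widest in each comparison, and calls appear only in the panels with *Trp53R270H/R270H* organoids.

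*Cdx2* (chromosome 5, 147300805 to 147307270, minus strand), the main factor of intestinal identity, was expressed in every library. It had 50.2 and 47.6 rpkm in *Trp53+/+*, 104 and 52.8 in *Trp53flox/flox* and 40.8 and 49.5 in *Trp53R270H/R270H* organoids. The *Trp53+/+* and *Trp53R270H/R270H* ranges overlapped, and the high value was that of *Trp53flox/flox* replicate 1 alone. The log2 fold change in *Trp53R270H/R270H* against *Trp53+/+* was -0.12 (95% confidence interval -0.94 to 0.71, adjusted p=0.84). In *Trp53flox/flox* against *Trp53+/+* it was 0.59 (-0.23 to 1.42, adjusted p=0.247), and without *Trp53flox/flox* replicate 1 or 2 it was 0.11 (adjusted p=0.5) and 1.08 (0.00114). Against *Trp53flox/flox* organoids, *Trp53R270H/R270H* was then at -0.23 (0.172) and -1.20 (0.000742). The genes whose profile over the 6 libraries was closest to that of *Cdx2* were *Rplp0*, *Ndufs8* and *Gnb2*, with root mean square differences of 0.0325, 0.0478 and 0.0498 in centred log2 level. *Rplp0* and *Gnb2* are on chromosome 5 as well. In *Trp53flox/flox* replicate 1, the 652 tested genes of chromosome 5 had a median shift of 0.30 on the log2 scale, the highest of the 19 autosomes in that library, and the part of this shift in the *Cdx2* value was not tested.

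*Cdx1* (chromosome 18, 61018862 to 61036199, minus strand) was steady in the other genotypes and split between the *Trp53flox/flox* libraries. It had 20.8 and 19.8 rpkm in *Trp53+/+*, 37 and 4.73 in *Trp53flox/flox* and 30.8 and 32.3 in *Trp53R270H/R270H* organoids. Both *Trp53R270H/R270H* libraries were above both *Trp53+/+* libraries, and *Trp53flox/flox* replicate 2 had the lowest value of all. The *Trp53flox/flox* libraries differed by 2.73 on the log2 scale, more than 99.6% of tested genes did in this pair. That spread enters the error of every comparison, and the log2 fold change of 0.62 in *Trp53R270H/R270H* against *Trp53+/+* (-1.54 to 2.77) had an adjusted p of 0.665. Fitted without *Trp53flox/flox* replicate 1 or 2, the same difference had an adjusted p of 0.00122 or 0.00107, and 0.000548 with only these 2 genotypes in the fit. Against *Trp53flox/flox* organoids, the sign turned with the library left out, from 2.51 without replicate 1 (adjusted p=0.000112) to -0.22 without replicate 2 (0.0355). Likewise, *Trp53flox/flox* against *Trp53+/+* went from -1.89 (0.000316) to 0.84 (0.000508). The ratio of *Cdx2* to *Cdx1* in rpkm was 2.41 in both *Trp53+/+* libraries, 1.32 and 1.53 in *Trp53R270H/R270H* and 2.82 and 11.2 in *Trp53flox/flox* libraries. The nearest profiles to that of *Cdx1* were *St6galnac2*, *Cldn15* and *Eno3*, whose *Trp53flox/flox* libraries also split, with 75.9 and 6.72 rpkm for *Cldn15*, a claudin of intestinal tight junctions.

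Since Cdx factors set intestine apart from stomach, the gastric genes were looked at library by library. Of 17 listed, 13 were above the floor in *Trp53flox/flox* replicate 2, the library with the lowest *Cdx1*, against 2 in *Trp53flox/flox* replicate 1, 7 in each *Trp53+/+* library and 3 in each *Trp53R270H/R270H* library. In *Trp53flox/flox* replicate 2, *Gkn3* reached 67.6 rpkm, *Gkn1* 10.6, *Vsig1* 9.71 and *Cldn18* 7.27, all genes of the stomach lining. *Gkn1*, *Vsig1* and *Cldn18* were at the floor in the other 5 libraries. *Sox2* and *Barx1*, transcription factors of the stomach, were at the floor in all 6, and *Cdx2* was at 52.8 rpkm in this library. It was also the library with *Acta2* at 11.5 rpkm and *Tek* at 21.4 rpkm, markers of muscle-like and endothelial cells. Of 10 mesenchymal markers, 6 were above the floor in it, against 1 or 2 in each other library. Among these 6 were *Col1a1* at 2.44 rpkm and *Pdgfrb* at 1.36 rpkm, while *Pecam1*, *Kdr*, *Col3a1* and *Des* were at the floor. Whether other cells took part in the *Cdx1* value of this library was not tested. By genotype, 9 gastric genes were tested and only *Lipf*, gastric lipase, was called, lower in *Trp53R270H/R270H* (log2 fold change -4.67, adjusted p=0.00594) and in *Trp53flox/flox* organoids (-3.98, 0.0132) than in *Trp53+/+*. Of all tested genes, 6.36% and 6.90% were called lower in these 2 comparisons.

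**Figure D3:**
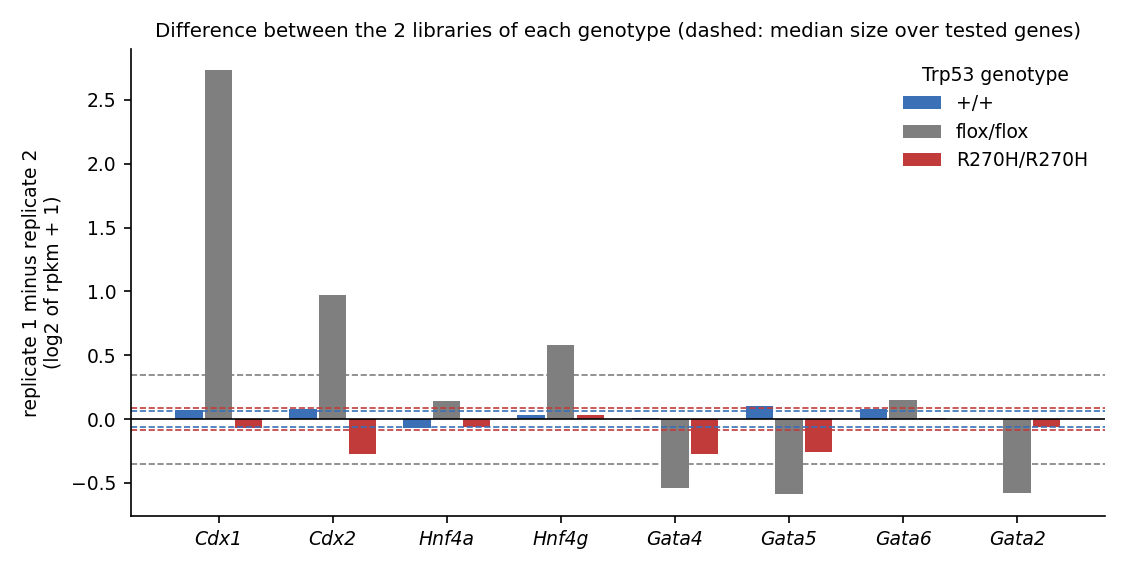
Log2 difference between replicate 1 and replicate 2 of each genotype for the 8 factors, as bars, with the median absolute difference over all tested genes as dashed lines in the colour of the genotype. The *Cdx1* bar of *Trp53flox/flox* organoids reaches 2.73, while its bars in the other genotypes stay at 0.07 or less in size.

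*Hnf4a* (chromosome 2, 163506808 to 163572910, plus strand) was the most abundant of the 8 genes by genotype mean and varied least. It had 104 and 110 rpkm in *Trp53+/+*, 92.1 and 83.8 in *Trp53flox/flox* and 112 and 116 in *Trp53R270H/R270H* organoids. The *Trp53flox/flox* libraries were the lowest and the *Trp53R270H/R270H* libraries the highest, without overlap. The differences were small, with log2 fold changes of 0.09 in *Trp53R270H/R270H* against *Trp53+/+* (-0.17 to 0.35, adjusted p=0.595), -0.28 in *Trp53flox/flox* against *Trp53+/+* (0.127) and 0.37 in *Trp53R270H/R270H* against *Trp53flox/flox* (0.0548). Without *Trp53flox/flox* replicate 1 or 2, the last of these passed at 0.44 (adjusted p=0.00544) and 0.30 (0.0108), as did *Trp53flox/flox* against *Trp53+/+* at -0.35 (0.0146) and -0.21 (0.0386). *Hnf4g* (chromosome 3, 3508030 to 3658052, plus strand), the minor partner, had 9.27 and 9.06 rpkm in *Trp53+/+*, 6.93 and 4.30 in *Trp53flox/flox* and 12 and 11.8 in *Trp53R270H/R270H* organoids. Its groups kept the same order as those of *Hnf4a* and did not overlap. *Hnf4g* was called higher in *Trp53R270H/R270H* than in *Trp53flox/flox* organoids, with a log2 fold change of 0.99 (SE 0.21, adjusted p=0.0281). Against *Trp53+/+*, the values of 0.35 in *Trp53R270H/R270H* (adjusted p=0.312) and -0.65 in *Trp53flox/flox* organoids (0.0984) were not called. Both passed when *Trp53flox/flox* replicate 1 or 2 was left out, the first with adjusted p-values of 0.00723 and 0.00681 and the second at -0.94 (0.00144) and -0.36 (0.00889). The difference between *Trp53R270H/R270H* and *Trp53flox/flox* was then 1.29 (adjusted p=0.000374) and 0.70 (0.000803). The ratio of *Hnf4a* to *Hnf4g* was 11.2 and 12.1 in *Trp53+/+*, 13.3 and 19.5 in *Trp53flox/flox* and 9.27 and 9.85 in *Trp53R270H/R270H* libraries. The profiles closest to *Hnf4g* were those of *Slc5a1*, the glucose transporter of the brush border, *Zfp932* and *Skp1a*, at root mean square differences of 0.0658 to 0.0797. *Slc5a1* had 14.9 and 15.3 rpkm in *Trp53+/+*, 12.4 and 8.17 in *Trp53flox/flox* and 20.4 and 21.8 in *Trp53R270H/R270H* libraries.

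Genes that Cdx2 and Hnf4 factors bind in enterocytes gave no call between *Trp53R270H/R270H* and *Trp53+/+* organoids. Of 22 brush border and enterocyte genes, 16 were tested and 5 were at the floor in all libraries, among them sucrase (*Sis*) and lactase (*Lct*). By limma, 0 of the 16 were called in *Trp53R270H/R270H* against *Trp53+/+*, where 12.2% of all tested genes were called in either direction. At an unadjusted p under 0.05 there were 3, 0 of them higher, beside 3209 of the 10042 tested genes. The missing calls do not show unchanged levels, since the spread between *Trp53flox/flox* libraries enters the error here too. *Fabp2* had 27.6 and 31.4 rpkm in *Trp53+/+* and 12.1 and 10.8 in *Trp53R270H/R270H* libraries. *Apob* had 14.6 and 19 against 2.05 and 1.59, while *Slc5a1* was higher in *Trp53R270H/R270H* libraries. In *Trp53flox/flox* against *Trp53+/+*, 9 had an unadjusted p under 0.05, 0 of them higher, beside 3489 of the 10042 tested genes. After adjustment 3 were called, all lower, beside 6.90% of all tested genes called lower. These were the alkaline phosphatase *Alpi* (log2 fold change -2.05, adjusted p=0.0426), the protease *Mep1b* (-2.03, 0.0136) and the protocadherin *Cdhr2* (-1.49, 0.0387). *Alpi* was at 4.86 and 10.7 rpkm in *Trp53+/+*, at the floor in both *Trp53flox/flox* and at 8.8 and 4.35 in *Trp53R270H/R270H* libraries. Between *Trp53R270H/R270H* and *Trp53flox/flox* organoids, 5 were called higher, beside 13.6% of all tested genes. *Mep1b* (1.93, 0.00883), *Alpi* (1.86, 0.0351) and the fatty acid binding protein *Fabp1* (1.80, 0.0193) were the furthest apart. *Slc5a1* (1.00, 0.0247) and the lipid transfer protein *Mttp* (0.90, 0.0274) followed, of which *Mttp* passed the filter on low values only through the *Trp53R270H/R270H* libraries. The median log2 fold change of the 16 genes was -0.18, -1.04 and 0.16 in the 3 comparisons in this order, against 0.03, -0.02 and 0.03 over all genes.

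Reads of related genes can be divided wrongly where their sequences match, so the longest identical stretch between transcripts (GENCODE M21) of *Gata4* and *Gata5* is shown. It was 26 bases long and crossed a junction of coding exons, between 63203397 and 63203682 on chromosome 14 and between 180327846 and 180328330 on chromosome 2, both on the minus strand. Among the Gata factors here it was the longest such stretch.
Gata4 and Gata5: ggcctctacatgaagctccatggggt

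*Gata4* (chromosome 14, 63198922 to 63271692, minus strand) was lowest in the organoids with mutant p53. It had 32.3 and 32.1 rpkm in *Trp53+/+*, 20.9 and 31 in *Trp53flox/flox* and 13.7 and 16.8 in *Trp53R270H/R270H* organoids. The *Trp53R270H/R270H* libraries were below all others, and *Trp53flox/flox* replicate 2 came close to the *Trp53+/+* level. In *Trp53R270H/R270H* against *Trp53+/+* organoids the level was 2.11-fold lower, with a log2 fold change of -1.04 (SE 0.21, adjusted p=0.0385). Against *Trp53flox/flox* organoids, -0.71 did not pass (adjusted p=0.0611), and without *Trp53flox/flox* replicate 1 or 2 the values were -0.98 (0.00291) and -0.44 (0.0222). In *Trp53flox/flox* against *Trp53+/+* organoids they were -0.05 (adjusted p=0.749) and -0.60 (0.00845).

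*Gata5* (chromosome 2, 180325133 to 180334699, minus strand) fell alongside *Gata4* but stood highest in *Trp53flox/flox* organoids. It had 15.4 and 14.3 rpkm in *Trp53+/+*, 15.7 and 24.2 in *Trp53flox/flox* and 6.34 and 7.77 in *Trp53R270H/R270H* organoids. Again the *Trp53R270H/R270H* libraries were below all others. The log2 fold change was -1.36 against *Trp53flox/flox* (SE 0.22, adjusted p=0.0172) and -0.98 against *Trp53+/+* (SE 0.22, adjusted p=0.0499). The latter lay at the threshold and was called in 8 of 17 alternative analyses, with adjusted p-values up to 0.0776 where no library was left out. In *Trp53flox/flox* against *Trp53+/+* organoids, it passed without *Trp53flox/flox* replicate 1 (0.67, adjusted p=0.0132) and not without replicate 2 (0.08, 0.604).

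*Gata6* (chromosome 18, 11052064 to 11085635, plus strand) moved the other way. It had 6.85 and 6.41 rpkm in *Trp53+/+*, 8.76 and 7.78 in *Trp53flox/flox* and 15 and 14.8 in *Trp53R270H/R270H* organoids, so the *Trp53R270H/R270H* libraries were above all others and hardly differed from each other. The level was 2.25-fold that of *Trp53+/+* (log2 fold change 1.06, SE 0.11, adjusted p=0.00783) and 1.8-fold that of *Trp53flox/flox* organoids (0.78, SE 0.11, adjusted p=0.0129). In *Trp53flox/flox* against *Trp53+/+* it was 0.28 (-0.00 to 0.56, adjusted p=0.146), with 0.20 (0.0964) and 0.36 (0.0114) without *Trp53flox/flox* replicate 1 or 2. *Gata6* and *Gata2* belong to the mutant p53-activated gene set that the study chose on these same libraries, so their rise is not independent evidence for that set.

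With 2 members down and 1 up, the makeup of the gut Gata factors shifted. *Gata6* made up 12.6 and 12.1% of the summed *Gata4*, *Gata5* and *Gata6* rpkm in *Trp53+/+*, 19.3 and 12.4% in *Trp53flox/flox* and 42.8 and 37.7% in *Trp53R270H/R270H* libraries. The *Trp53R270H/R270H* shares were above all others. *Gata4* went from 59.2 and 60.7% in *Trp53+/+* to 39.1 and 42.6% in *Trp53R270H/R270H* libraries, and the ratio of *Gata4* to *Gata6* from 4.71 and 5 to 0.915 and 1.13. The sum of the 3 genes was 54.5 and 52.8 rpkm in *Trp53+/+*, 45.4 and 62.9 in *Trp53flox/flox* and 35 and 39.4 in *Trp53R270H/R270H* libraries, so it was lowest in *Trp53R270H/R270H* organoids.

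**Figure D4:**
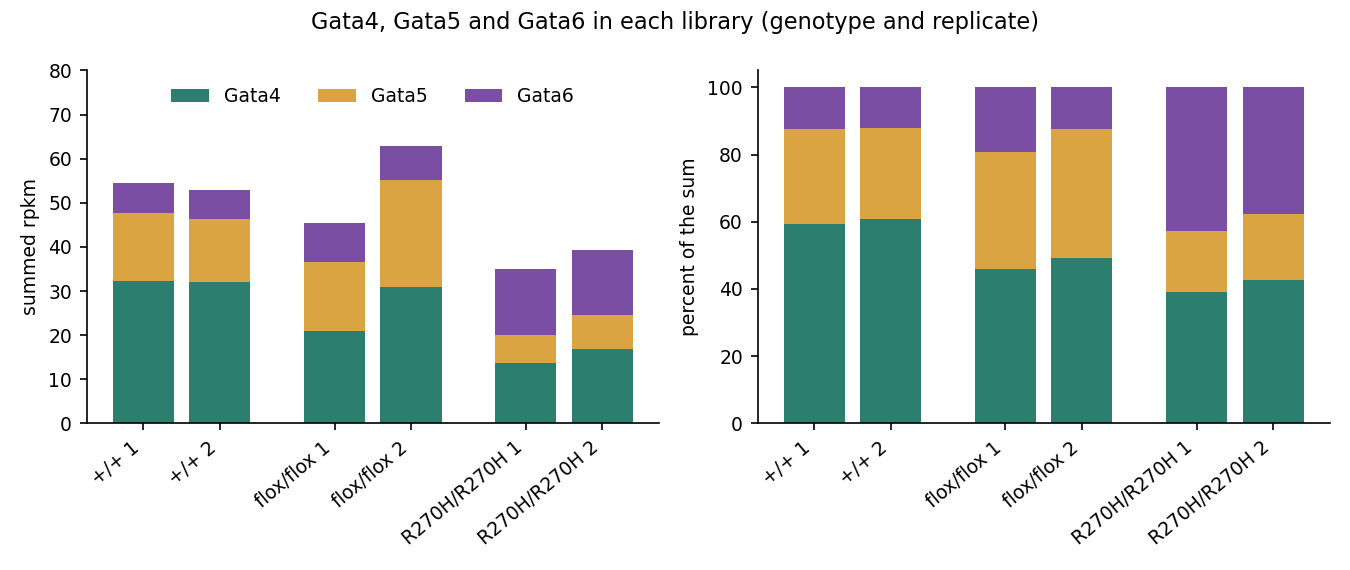
Summed rpkm of *Gata4*, *Gata5* and *Gata6* per library as stacked bars (left) and the percent of the sum that each makes up (right). The *Gata6* segment is 37.7 and 42.8% in *Trp53R270H/R270H* libraries and between 12.1 and 19.3% in the others.

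The nearest profiles differed between the 3 gut Gata factors. *Gata4* was closest to *Gadd45a*, *Egr1* and *Npas2*, at root mean square differences of 0.0848 to 0.103 over the 6 libraries. *Gadd45a*, a growth arrest gene that wild-type p53 can induce, had 7.57 and 7.92 rpkm in *Trp53+/+*, 4.82 and 7.62 in *Trp53flox/flox* and 2.85 and 3.04 in *Trp53R270H/R270H* libraries. *Gata5* was closest to *BC021891*, the glucose transporter gene *Slc2a1* and *Ccdc64b* (0.081 to 0.105). *Slc2a1* had 66.3 and 58.4 rpkm in *Trp53+/+*, 78.1 and 116 in *Trp53flox/flox* and 31.3 and 37.6 in *Trp53R270H/R270H* libraries. *Gata6* was closest to *Ccnjl*, *Pcgf1* and *Sesn3* (0.0641 to 0.0796), and *Sesn3*, a stress-response gene, had 19.3 and 19.1 rpkm in *Trp53R270H/R270H* against 8.91 to 11.3 in the other libraries.

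Genes typical of the gut regions that Gata4 sets apart are given region by region. In *Trp53R270H/R270H* against *Trp53+/+*, 5.86% of all tested genes were called higher and 6.36% lower. Of 11 duodenal and jejunal genes, 7 were tested and 2 were called in this comparison, both lower. By limma, 3 of the 7 had an unadjusted p under 0.05, 0 of them higher, beside 3209 of the 10042 tested genes. The median log2 fold change of the 7 was -0.89, against 0.03 over all tested genes. The carboxylesterase *Ces2e* had 22.2 and 31 rpkm in *Trp53+/+*, was at the floor in both *Trp53flox/flox* and had 2.78 and 2.04 in *Trp53R270H/R270H* libraries (log2 fold change -3.01, adjusted p=0.00367). It passed the filter on low values only through the *Trp53+/+* libraries and so had to differ. The iron exporter *Slc40a1* was at 15.9 and 20.7 rpkm in *Trp53+/+* and 9.88 and 8.9 in *Trp53R270H/R270H* libraries (-0.89, 0.0276). Both were also called lower in *Trp53flox/flox* organoids (-3.77, 0.00311 and -1.30, 0.0147). The part of *Gata4* in these values was not tested. Of 6 ileal genes listed, 3 were tested and *Cubn*, the receptor for the vitamin B12 complex, was called higher in *Trp53R270H/R270H* organoids, with 10.3 and 9.07 rpkm against 1.21 and 1.39 in *Trp53+/+* (2.21, 0.0323). *Cubn* passed the filter on low values only through the *Trp53R270H/R270H* libraries and so had to differ. The ileal bile acid binding protein *Fabp6* was at the floor in all libraries. *Slc10a2*, the ileal bile acid transporter, had 1.06 and 1.05 rpkm in *Trp53+/+*, 1 and 4.87 in *Trp53flox/flox* and 1 and 1 in *Trp53R270H/R270H* libraries. *Fgf15*, also tested, had 5.52 and 8.63 rpkm in *Trp53+/+*, 10.2 and 1.36 in *Trp53flox/flox* and 2.49 and 2.64 in *Trp53R270H/R270H* libraries. Neither was called in any comparison. Of 9 colonic genes listed, 2 were tested and 0 were called by limma in any of the 3 comparisons, with 0 at an unadjusted p under 0.05. Of all tested genes, 12.2% were called in *Trp53R270H/R270H* against *Trp53+/+*, 11.3% in *Trp53flox/flox* against *Trp53+/+* and 24.6% in *Trp53R270H/R270H* against *Trp53flox/flox*. In the same order, 3209, 3489 and 4269 of the 10042 tested genes had an unadjusted p under 0.05 by limma.

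*Gata2* (chromosome 6, 88193891 to 88207032, plus strand) was detected in the *Trp53R270H/R270H* libraries at 6.86 and 7.21 rpkm. It was at the floor in both *Trp53+/+* libraries and in *Trp53flox/flox* replicate 1, and at 1.98 rpkm in *Trp53flox/flox* replicate 2. The *Trp53R270H/R270H* libraries were above all others, and the mean was at least 7.03-fold higher than in *Trp53+/+* organoids. *Gata2* passed the filter on low values only through the *Trp53R270H/R270H* libraries and so had to differ, which limits the adjusted p-values below. The log2 fold change of rpkm+1 was 2.01 against *Trp53+/+* (SE 0.22, adjusted p=0.00947) and 1.72 against *Trp53flox/flox* organoids (SE 0.22, adjusted p=0.0106), where 0.29 separated *Trp53flox/flox* from *Trp53+/+* (adjusted p=0.386). Without *Trp53flox/flox* replicate 1, which stood at the floor, the latter was 0.58 (adjusted p=0.00754). At the estimated depths, the floor corresponds to 239 to 255 reads over the 5398 exonic bases of *Gata2*, so its absence from *Trp53+/+* organoids is not shown. The profiles closest to *Gata2* were those of the chemokine *Cxcl5*, the cell cycle inhibitor *Cdkn1c* and the signaling adaptor *Pik3ap1*, at root mean square differences of 0.0984 to 0.133.

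On chromosome 6, no call was made among the tested genes next to *Gata2*. The 3 nearest tested genes on either side, *8430410A17Rik*, *Rab7*, *Rpn1*, *Eefsec*, *Ruvbl1* and *Sec61a1*, had log2 fold changes of -0.12 to 0.27 in *Trp53R270H/R270H* against *Trp53+/+* organoids, and 0 of these 6 were called. *Rpn1*, 88 kb away, had 110 and 110 rpkm in *Trp53+/+* and 111 and 108 in *Trp53R270H/R270H* libraries. *Dnajb8*, which also lies next to *Gata2*, was at the floor in all libraries. Over the 45 tested neighbours of the 8 factors, 3 were called higher and 0 lower in this comparison, beside the 5.86% and 6.36% of all tested genes. These were *Abhd3* near *Gata6* (0.88, adjusted p=0.0167) and *Pan3* (0.70, 0.0168) and *Slc46a3* (1.07, 0.0353) near *Cdx2*, the last of which passed the filter only through 1 *Trp53R270H/R270H* library, at 4.33 rpkm. *Pdx1*, a duodenal homeobox gene 25 kb from *Cdx2*, had 5.26 and 4.41 rpkm in *Trp53+/+*, 1 and 9.78 in *Trp53flox/flox* and 2.2 and 2.38 in *Trp53R270H/R270H* libraries and was not called (-0.82, 0.512).

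Among 14 relatives and cofactors of Gata factors, *Lmo2* had the pattern of *Gata2*. Lmo2 is the LIM-domain bridge that joins Gata2 or Gata1 to Tal1 or Lyl1 and to Ldb1 in blood cells. It was at the floor in all *Trp53+/+* and *Trp53flox/flox* libraries and at 7.1 and 6.92 rpkm in *Trp53R270H/R270H* libraries, with a log2 fold change of 2.00 against either genotype (SE 0.14, adjusted p=0.00367 against *Trp53+/+* and 0.00247 against *Trp53flox/flox*). Like *Gata2*, it passed the filter only through these libraries. *Ldb1*, the adaptor of the complex, was above the floor in all libraries, at 28.7 to 49.2 rpkm, and was called in *Trp53R270H/R270H* against *Trp53flox/flox* organoids (0.56, adjusted p=0.0478) but not against *Trp53+/+*. *Gata1*, *Gata3*, *Tal1* and *Lyl1* were at the floor in all 6 libraries, as were 9 of the 14 genes in all. *Lmo4*, a relative of *Lmo2*, was called lower in *Trp53R270H/R270H* than in *Trp53+/+* organoids (-0.68, adjusted p=0.0383) and than in *Trp53flox/flox* organoids (-0.59, 0.0354), with 15.6 and 15.4 rpkm in *Trp53+/+* and 9.41 and 9.21 in *Trp53R270H/R270H* libraries. *Runx1*, a blood factor that works with Gata factors, was called lower in *Trp53R270H/R270H* than in *Trp53flox/flox* organoids (-0.66, 0.0326) but not against *Trp53+/+*, and passed the filter only through *Trp53flox/flox* replicate 2, at 4.21 rpkm.

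**Figure D5:**
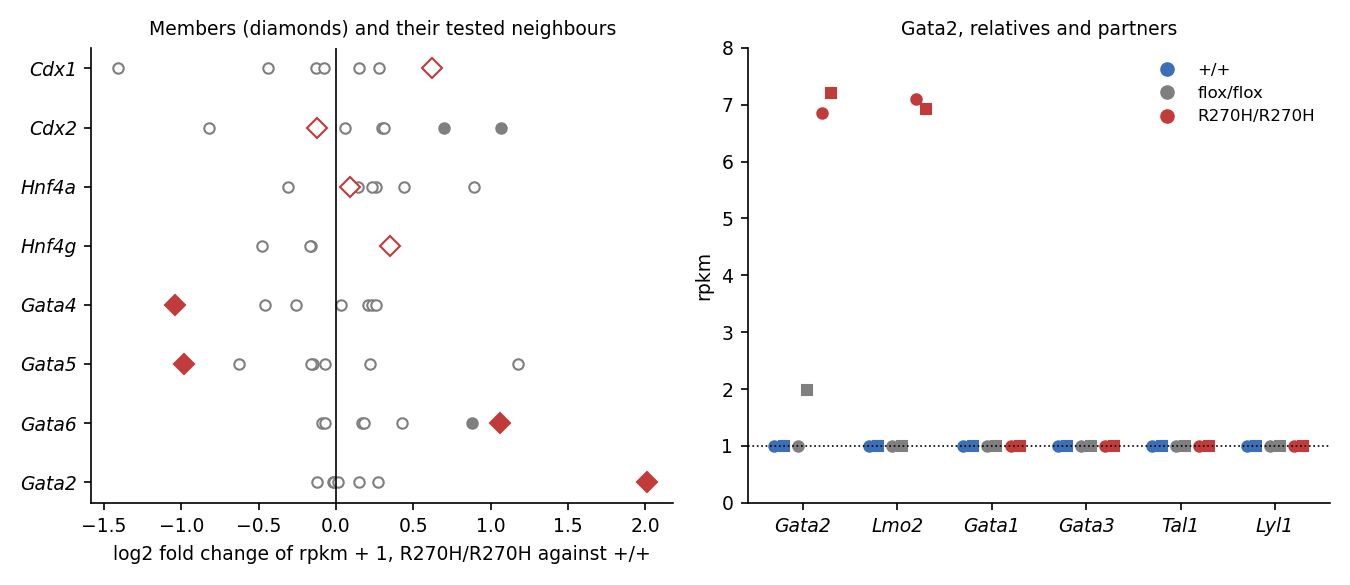
Left, log2 fold change of rpkm+1 in *Trp53R270H/R270H* against *Trp53+/+* organoids for each factor (diamonds) and its nearest tested genes on the chromosome (circles), filled where the adjusted p was under 0.05. Right, rpkm of *Gata2*, *Lmo2* and 4 relatives or partners in each library, with the floor of 1 rpkm dotted, showing *Gata2* and *Lmo2* near 7 rpkm in *Trp53R270H/R270H* libraries only and the others at the floor.

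Because *Gata2* marks mast cells, blood precursors and endothelium, their markers are given beside it. The mast cell genes *Cpa3*, *Mcpt1*, *Mcpt2*, *Cma1* and *Fcer1a* and the blood and endothelial genes *Ptprc*, *Cd34*, *Pecam1* and *Kdr* were at the floor in all 6 libraries. The 4 tested genes of the list were *Tpsb2*, *Cdh5*, *Kit* and *Tek*. The tryptase *Tpsb2* had 22.8 and 16.4 rpkm in *Trp53R270H/R270H* against 4.19 and 6.12 in *Trp53+/+* and 1 and 1.2 in *Trp53flox/flox* libraries and was called higher (1.74, adjusted p=0.0149 against *Trp53+/+*). *Cdh5*, the endothelial cadherin, was called lower (-2.32, 0.0224), but passed the filter on low values only through the *Trp53+/+* libraries. *Kit*, the receptor of mast cells, had 7.54 and 4.3 rpkm in *Trp53+/+* and 1.09 and 1 in *Trp53R270H/R270H* libraries. The summed level of the list was 37.7 to 38.6 rpkm in *Trp53+/+*, 18 to 44 in *Trp53flox/flox* and 33.5 to 40.1 in *Trp53R270H/R270H* libraries. Of 10 mesenchymal markers, 4 were at the floor in all libraries, and the sum was 59 to 78 rpkm in *Trp53+/+*, 41.4 to 80.6 in *Trp53flox/flox* and 294 to 316 in *Trp53R270H/R270H* libraries. Nearly all of the latter was vimentin (*Vim*), at 306 and 284 rpkm, which was called higher against *Trp53flox/flox* (2.93, adjusted p=0.0261) but not against *Trp53+/+* (2.31, 0.0622). The part of cells with these markers in the Gata values was not tested. In bulk RNA, fewer cells of a type and less RNA per cell cannot be told apart.

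Of 22 other transcription factors of the gut, 16 were tested. In *Trp53R270H/R270H* against *Trp53+/+* organoids 3 were called higher and 0 lower, beside the 5.86% and 6.36% of all tested genes. The vitamin D receptor *Vdr* had 26.5 and 27.8 rpkm in *Trp53R270H/R270H* against 3.43 and 3.59 in *Trp53+/+* libraries (log2 fold change 2.64, adjusted p=0.00719). *Maf*, a factor of the mature villus tip, had 11.2 and 9.69 against 2.16 and 2.98 (1.69, 0.00713) and passed the filter only through the *Trp53R270H/R270H* libraries. The forkhead factor *Foxa1* had 27.6 and 28 against 19.7 and 18.7 (0.51, 0.0362). In *Trp53flox/flox* against *Trp53+/+* organoids, *Foxa1* (1.05, 0.0105), *Foxa3* (1.04, 0.0377) and *Klf4* (0.90, 0.0177), a goblet cell factor, were called higher, and *Maf* was called lower (-0.83, 0.0421), so *Maf* stood apart in opposite directions from *Trp53+/+* in the 2 mutant genotypes. Between *Trp53R270H/R270H* and *Trp53flox/flox* organoids, *Maf* (2.52, 0.00247) and *Vdr* (2.46, 0.00696) were called higher, and *Klf4* (-1.02, 0.00741) and *Foxa1* (-0.54, 0.0225) lower. *Onecut2*, a duodenal factor, had 11.2 and 10 rpkm in *Trp53R270H/R270H*, 3.24 and 3.66 in *Trp53+/+* and 1 and 5.92 in *Trp53flox/flox* libraries and was not called in any comparison. *Isx*, a homeobox gene that Cdx2 activates, had 58.4 and 65.5 rpkm in *Trp53+/+*, 169 and 45.8 in *Trp53flox/flox* and 66.6 and 67.5 in *Trp53R270H/R270H* libraries, with its high value in the same *Trp53flox/flox* library as that of *Cdx2*. Of the 10 epithelial markers, only *Krt19* was called in *Trp53R270H/R270H* against *Trp53+/+* organoids, lower (-0.78, 0.0469), beside 6.36% of all tested genes. In *Trp53flox/flox* against *Trp53+/+* organoids, 4 were called higher, beside 4.38% of all tested genes. *Cldn3* was the furthest apart (2.39, 0.0279), ahead of *Cldn4*, *Krt19* and *Krt8*. Between *Trp53R270H/R270H* and *Trp53flox/flox* organoids, 6 of the 10 markers were called lower and 0 higher, beside 11.0% and 13.6% of all tested genes. *Cldn3* (-3.26, 0.00864), *Krt19* (-1.62, 0.00657) and *Cldn4* (-1.21, 0.00572) were the furthest apart. The part of these 10 markers in the calls of the 8 genes against *Trp53flox/flox* organoids was not tested.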

How the data were processed

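The authors used StrandNGS to compute rpkm values from stranded poly(A) RNA-seq reads mapped to mm10. The deposited RPKM table lists 36172 genes in 6 libraries. The version and annotation of StrandNGS and the read filters are not given in the sources used here. No value is below 1 rpkm, which was taken from the values to be a floor, so ratios against genes at it are lower bounds.

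Groups and replicate numbers came from the sample titles. With limma 3.58.1 (R 4.3.3), log2(rpkm+1) of the 10042 genes that reached 4 rpkm in 1 library or more was fitted (lmFit, eBayes with trend) for all 6 libraries without a block. Tests were two-sided with Benjamini-Hochberg adjustment over these genes at 0.05. The log2(rpkm+1) scale understates changes of low genes. Python 3.11.15 with pandas 2.3.3 was used for the other steps. Positions are from GENCODE M21 and RefSeq (GRCm38). Nearest profiles are given for tested members that ranged over more than 1 on the log2 scale, and up to 3 called genes are named per list and comparison by this rule. Further called genes, and others shown beside a member, were named after their values were seen. Depth was estimated where at least 8 short RNA genes could be used.

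The 8 genes and the gene lists were chosen with earlier results of these data known. The code was tested on simulated data. Same-numbered libraries came from different mice, so the numbers were not used as pairs in the main fit. Deviations of same-numbered libraries were correlated at 0.117, -0.291 and -0.196. Whether genotypes shared a batch was not tested. By RT-PCR, the study reports higher *Gata2* in *Trp53R270H/R270H* organoids than in the other genotypes, and in invasive than in non-invasive tumor areas. It also reports a more accessible *Gata2* promoter in *Trp53R270H/R270H* tumor cells. RT-PCR and chromatin accessibility were not analysed here.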

Additional observations from a re-analysis of the deposited data

How the results depend on the processing

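Directions of the 8 genes held under pseudocounts of 0.1 and 0, other filters, other scaling, other spread models and 2 replicate blocks. The 4 called in *Trp53R270H/R270H* against *Trp53+/+* became 3 with a replicate block (*Gata5* lost, adjusted p=0.0685) and 2 with a block in which the *Trp53R270H/R270H* numbers were exchanged, which also lost *Gata4* (0.0614). They became 6 with only these 2 genotypes and with weights for each genotype, and 3 with a filter just above the floor, upper-quartile scaling or eBayes without trend. The 4 called in *Trp53R270H/R270H* against *Trp53flox/flox* became 0 in a fit of only these 2 genotypes and 2 with weights for each genotype. They became 5 with the filter just above the floor or upper-quartile scaling, and stayed 4 in number with either block. The 0 called in *Trp53flox/flox* against *Trp53+/+* remained 0 in all of these. *Gata2* could not be fitted there with only those 2 genotypes, since the filter left it out.

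Leaving out each library gave 0 to 6 called in *Trp53R270H/R270H* against *Trp53+/+*, 0 to 6 in *Trp53flox/flox* against *Trp53+/+* and 0 to 8 in *Trp53R270H/R270H* against *Trp53flox/flox*. The high counts came without a *Trp53flox/flox* library and the 0 counts without a library of another genotype, when the lone library is assumed to vary like the others. Directions turned for *Cdx2* in *Trp53R270H/R270H* against *Trp53+/+* (between -0.25 and 0.02) and for *Cdx1* (between -1.89 and 0.84 in *Trp53flox/flox* against *Trp53+/+* and between -0.22 and 2.51 in *Trp53R270H/R270H* against *Trp53flox/flox*). Over all genes, 1227, 1133 and 2469 were called in *Trp53R270H/R270H* against *Trp53+/+*, *Trp53flox/flox* against *Trp53+/+* and *Trp53R270H/R270H* against *Trp53flox/flox*, with 550 to 5987, 59 to 1469 and 397 to 3056 over the alternatives that kept all libraries. Values under 1 rpkm are not visible, which limits what can be said of *Gata2* and *Lmo2*.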
